A study of Mus musculus with 2 samples.

Results

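Transforming growth factor β (TGF-β) ligands, their receptors and 4 genes known as readouts of the pathway in fibrosis were described in cells of healing large wounds. They were Tgfb1, Tgfb2 and Tgfb3, Tgfbr1 and Tgfbr2, and Tgfbi, Acta2, Ctgf and Postn. All 9 were found by symbol among the 27998 genes of the count matrices, and they were chosen by name with earlier results of these data known. Dorsal wounds 1.8 cm across, on wild-type male C57BL/6J mice aged 6 to 8 weeks, had received PBS by the labels (WT_LW) or ODN2395, a CpG oligonucleotide that activates Toll-like receptor 9 (TLR9agonist_LW), on days 0, 3 and 6. Elsewhere the study names a control oligonucleotide for wounds called WT_LW, so what the control wounds received is not certain. The wound centre was taken 2 days after the scab came off, and the skin was dissociated and sequenced by droplet single-cell RNA sequencing. The comparison asks how these genes differed between the cell types of the wound and between the treatments. Mice of a group were pooled into 1 library, so no difference between groups has a replicate check, and treatment, pool and preparation cannot be told apart. The number of mice pooled is given differently in different places and is not printed here. Every interval here covers counting error only.

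TGF-β is secreted in a latent complex and stays bound to the matrix until integrins or proteases release it. The freed ligand binds TGFBR2, which recruits and phosphorylates TGFBR1, and SMAD2 and SMAD3 then enter the nucleus with SMAD4. In skin wounds the pathway is known for turning fibroblasts into contractile myofibroblasts, for collagen deposition and for scarring. SMAD3 and SMAD4 bind elements that can hold CAGACA, TEAD factors bind GGAATG, and serum response factor binds the CArG box of smooth muscle genes.

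The DNA before the start site is shown for 3 members. Acta2 had the largest ratio between libraries in a fibroblast sub-cluster without mixed markers, Tgfb2 was the only one of the 9 with a relative ratio, as defined further on, past 2-fold in keratinocytes, and Postn had its highest level in fibroblasts. Each sequence is the 250 bases before a RefSeq start site on GRCm38.p6, read 5′ to 3′ on the strand of the gene. Capitals mark a match to CAGACA, to the TEAD motif GGAATG or to the TATA box TATAAA on either strand.
Acta2, chr19:34255374-34255623, minus strand: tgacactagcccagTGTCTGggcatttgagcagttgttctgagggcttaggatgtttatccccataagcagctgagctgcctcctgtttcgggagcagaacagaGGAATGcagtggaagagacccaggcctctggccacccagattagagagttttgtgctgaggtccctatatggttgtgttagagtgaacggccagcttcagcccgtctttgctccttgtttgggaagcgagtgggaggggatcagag
Tgfb2, chr1:186705990-186706239, minus strand: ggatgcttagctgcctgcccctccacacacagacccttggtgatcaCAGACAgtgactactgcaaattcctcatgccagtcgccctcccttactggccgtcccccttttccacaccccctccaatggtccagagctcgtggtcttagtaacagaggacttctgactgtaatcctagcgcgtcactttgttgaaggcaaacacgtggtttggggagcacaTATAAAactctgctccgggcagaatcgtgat
Postn, chr3:54360857-54361106, plus strand: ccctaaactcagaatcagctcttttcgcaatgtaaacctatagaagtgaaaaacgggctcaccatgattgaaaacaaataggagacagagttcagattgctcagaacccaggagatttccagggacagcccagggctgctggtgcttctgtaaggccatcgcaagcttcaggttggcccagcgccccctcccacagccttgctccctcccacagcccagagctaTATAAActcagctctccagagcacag
In the Acta2 window CAGACA lay on the opposite strand 236 bases before the start site, and GGAATG lay 146 bases before it. The Tgfb2 window held CAGACA at 204 and TATAAA at 31 bases before the start site, and the printed Postn window held TATAAA at 26 bases before it. Postn had another RefSeq start site, whose window, chr3:54359017-54359266, is not printed and held none of these motifs. Of 32851 windows of this length, 17.1% held CAGACA, 12.6% GGAATG, 12.4% TATAAA and 1.47% an exact CArG box. The RefSeq table held 7 of the 9 members, all but Tgfb3 and Ctgf, and no window of these 7 held an exact CArG box. The exact form is CC, then only A or T, then GG, and inexact forms were not counted. The printed Acta2 window holds near matches, ccctatatgg and ccttgtttgg, each with a C or G among the A and T letters. These matches describe letters in the windows and not sites in use.

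The libraries held 99374045 UMIs (unique molecular identifiers, 1 per captured RNA molecule) in 12800 barcodes of WT_LW and 132339022 UMIs in 13751 barcodes of TLR9agonist_LW, and 47 barcodes occurred in both. After filtering, 10271 and 11753 cells were used. They were grouped into 11 classes by marker genes, and in each of the 10 classes with a marker list of its own every listed marker was detected in both libraries. Fibroblasts made up 8.04% of WT_LW cells (7.52 to 8.58) and 19.8% of TLR9agonist_LW cells (19.1 to 20.6), 826 and 2331 cells. Dissociation can set such shares. Cells with few UMIs or mixed markers, 687 and 698, were set aside, and 66 and 24 stayed unnamed. In the order WT_LW and TLR9agonist_LW, there were 703 and 500 pericytes and smooth muscle cells, 629 and 399 endothelial cells, 793 and 486 Schwann cells, 606 and 1247 keratinocytes, 1937 and 1454 macrophages and dendritic cells and 3056 and 3588 T cells.

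A level is given in CPM, the UMIs of a gene for each 1000000 UMIs of a class in a library. Where a pair of values has no label, WT_LW comes first. A log2 ratio is TLR9agonist_LW over WT_LW. The median gene had a ratio below 0 in most large classes, −0.39 over all cells, −0.27 in fibroblasts, −0.36 in pericytes and smooth muscle, −0.36 in endothelial cells, −0.44 in keratinocytes, −0.26 in macrophages and dendritic cells, −0.26 in T cells and −0.16 in Schwann cells. The relative ratio is the difference from that median gene. Past 2-fold means at least 50 UMIs in the class and a relative log2 ratio of at least 1 in size. It is a size and not a test. Ratios within clusters and sub-clusters are given on CPM, and the borders of these groups moved with small numerical changes in the clustering, so they are descriptions. For shares of cells with a UMI, UMIs were drawn at random from each cell down to 1500, which left out shallower cells, 7 and 2 fibroblasts and 50 and 180 mast cells. In fibroblasts 10.0% of all genes were past 2-fold and 0 of the 9 members. In pericytes and smooth muscle these were 9.92% and 0 of 9. The share of all genes was 11.7% over all cells, 5.07% in Schwann cells, 12.4% in keratinocytes, 6.98% in macrophages and dendritic cells and 12.4% in T cells, with 1 of 9 members in each. In endothelial cells it was 12.5%, with 1 of 8 members. In the small classes it was 7.59% in lymphatic endothelial cells with 3 of 8 members, 18.2% in mast cells with 3 of 6, 26.7% in neutrophils with 1 of 3 and 8.09% in CD8 T or NK cells with 1 of 6. In the large classes the members' counts lay close to these shares.

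**Figure D1:**
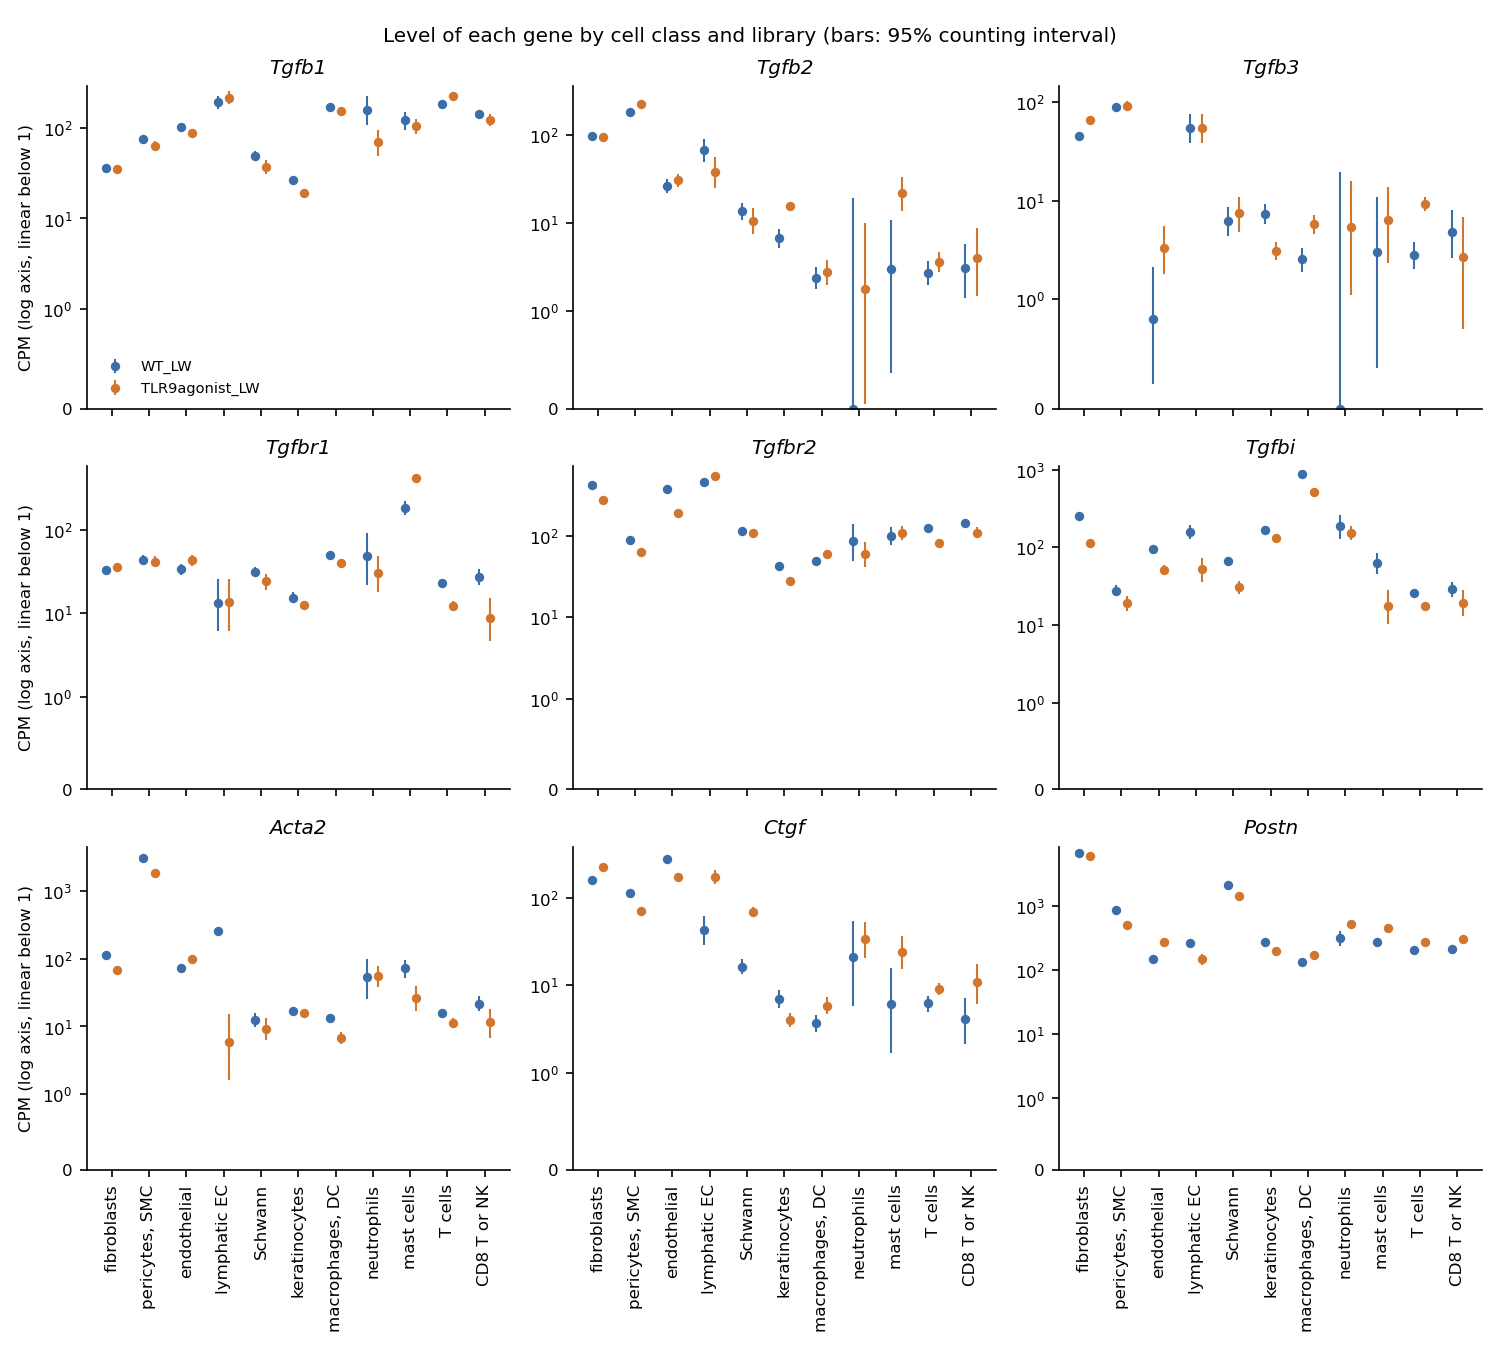
Level of each of the 9 genes in 11 cell classes, in CPM on a log axis that is linear below 1, with WT_LW in blue and TLR9agonist_LW in orange and bars for 95% counting intervals. In both libraries Tgfb2, Tgfb3 and Acta2 were highest in pericytes and smooth muscle, Postn in fibroblasts, Tgfbi in macrophages and dendritic cells and Tgfbr1 in mast cells.

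Tgfb1 (chr7:25687002-25705077, plus strand, GRCm38 as for all genes) encodes the ligand that leukocytes and platelets bring to wounds. Its level was highest in leukocytes and lymphatic endothelium and low in fibroblasts and keratinocytes. T cells had 187 CPM (180.2 to 194) in WT_LW and 226 CPM (219.5 to 234) in TLR9agonist_LW, and macrophages and dendritic cells had 174 CPM (169 to 180.0) in WT_LW and 154 CPM (148 to 161) in TLR9agonist_LW. Fibroblasts had 35.9 CPM (32.9 to 38.9) in WT_LW and 35.3 CPM (33.3 to 37.4) in TLR9agonist_LW, and keratinocytes 26.5 and 19.2 CPM. Among the classes ranked by level, 5 and 6 of the 10 neighbouring pairs had overlapping intervals in the 2 libraries.

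T cells had more Tgfb1 in TLR9agonist_LW (log2 ratio 0.28, 0.21 to 0.35, relative 0.54), and the intervals did not overlap. Among T cell clusters, the one led by Il17a and Cd163l1, genes of interleukin-17 producing γδ T cells, had 199.9 and 285 CPM (log2 ratio 0.51, 0.36 to 0.67). The cluster led by Tnfsf8 and Cd40lg had 179 and 204 CPM (log2 ratio 0.19, 0.08 to 0.30). The cluster led by Foxp3, the regulator of regulatory T cells, had 207 and 191 CPM (log2 ratio −0.12, −0.37 to 0.14), an interval that holds 0. The differences between these clusters were not tested. In fibroblasts the ratio was near 0 on CPM (log2 ratio −0.02, −0.17 to 0.13) and 0.25 relative to the median gene. The Tgfb1 level was 76.9 and 63.6 CPM (relative 0.09) in pericytes and smooth muscle and 103 and 88.0 CPM (relative 0.13) in endothelial cells. Neutrophils had 159.6 and 70.1 CPM, from 30 and 39 UMIs (relative −1.22).

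Tgfb2 (chr1:186622792-186705989, minus strand) is the ligand of mesenchymal and developing tissue, and its promoter window is the second one printed above. It was a gene of pericytes, smooth muscle and fibroblasts in both libraries. Pericytes and smooth muscle had 187 CPM (176 to 199) in WT_LW and 229 CPM (214 to 244) in TLR9agonist_LW, and fibroblasts 98.3 CPM (93.4 to 103) in WT_LW and 94.7 CPM (91.4 to 98.1) in TLR9agonist_LW. The pericyte level was higher in TLR9agonist_LW (log2 ratio 0.29, 0.16 to 0.42). Endothelial cells had 26.6 and 30.8 CPM (log2 ratio 0.22, −0.15 to 0.58). The fibroblast ratio was −0.05 on CPM and 0.22 relative to the median gene, so its sign depends on the scale.

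Keratinocytes held little Tgfb2, and among the classes with at least 50 Tgfb2 UMIs they had the largest ratio. They had 6.74 CPM (5.25 to 8.51) in WT_LW and 15.7 CPM (14.3 to 17.2) in TLR9agonist_LW, from 70 and 465 UMIs (log2 ratio 1.22, 0.85 to 1.60, relative 1.66). Of 10 keratinocyte sub-clusters, 6 had a ratio whose interval lay above 0 and 0 one that lay below, and 1 of those above carried markers of other cells. After thinning, 1.08% and 1.93% (unthinned 8.09% and 17.6%) of keratinocytes had a Tgfb2 UMI, against 0.498% and 0.546% (unthinned 1.34% and 1.76%) of T cells.

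Tgfb3 (chr12:86056745-86079041, minus strand) encodes the ligand best known from fetal wounds, which heal with little scar. Pericytes and smooth muscle had 89.4 CPM (81.6 to 97.9) in WT_LW and 92.0 CPM (82.9 to 102) in TLR9agonist_LW, with overlapping intervals, and fibroblasts 45.8 CPM (42.5 to 49.2) in WT_LW and 65.9 CPM (63.1 to 68.7) in TLR9agonist_LW, with intervals apart. Lymphatic endothelium, at 54.8 and 55.1 CPM, stood beside them, and the other classes were below 10 CPM. The fibroblast level was higher in TLR9agonist_LW (log2 ratio 0.53, 0.40 to 0.65, relative 0.80), and after thinning 6.23% and 8.93% (unthinned 46.9% and 48.1%) of fibroblasts had a UMI. Over all cells Tgfb3 was 17.6 CPM (16.7 to 18.5) in WT_LW and 27.2 CPM (26.2 to 28.2) in TLR9agonist_LW, relative 1.02 (on CPM 0.63).

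Low Tgfb3 levels outside these classes also differed. T cells had 2.80 and 9.26 CPM, from 43 and 162 UMIs (relative 1.99), and macrophages and dendritic cells 2.54 and 5.78 CPM, from 52 and 81 UMIs (relative 1.45). The summed level of the 7 fibroblast markers in T cells was 316 and 545 CPM, and all 7 were detected in both libraries. Its part in the Tgfb3 values was not tested. Keratinocytes went the other way, with 7.41 and 3.10 CPM (log2 ratio −1.26, −1.71 to −0.80, relative −0.82).

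Tgfbr1 (chr4:47353222-47414931, plus strand) encodes the type I receptor kinase, which phosphorylates SMAD2 and SMAD3. Mast cells had the highest level in both libraries. They had 181 CPM (150.3 to 217) in WT_LW and 412 CPM (372 to 454) in TLR9agonist_LW (log2 ratio 1.18, 0.88 to 1.49, relative 1.002). After thinning, 17.6% and 40.9% (unthinned 31.5% and 47.1%) of mast cells had a UMI, against 3.34% and 1.67% (unthinned 9.88% and 5.30%) of T cells. Mast cells were shallow, with medians of 2313 and 1698 UMIs per cell.

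The other classes had lower Tgfbr1 levels than mast cells. Fibroblasts had 32.5 CPM (29.7 to 35.4) in WT_LW and 35.5 CPM (33.5 to 37.6) in TLR9agonist_LW, with overlapping intervals, and macrophages and dendritic cells 49.6 CPM (46.6 to 52.7) in WT_LW and 39.9 CPM (36.7 to 43.3) in TLR9agonist_LW. The Tgfbr1 level was 43.0 and 41.4 CPM (relative 0.31) in pericytes and smooth muscle and 33.3 and 42.9 CPM (relative 0.73) in endothelial cells. T cells had 23.1 and 12.1 CPM (log2 ratio −0.94, −1.19 to −0.69, relative −0.68) and CD8 T or NK cells 27.2 and 8.75 CPM, from 80 and 13 UMIs (log2 ratio −1.64, −2.61 to −0.78, relative −1.56). Of the 3 largest macrophage and dendritic cell clusters, the level was highest in that led by Ms4a7 and C1qa, genes of resident macrophages, at 87.0 and 74.6 CPM, and lowest in that led by Cd207 and Cd209a, dendritic cell genes, at 20.3 and 12.9 CPM.

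Tgfbr2 (chr9:116084293-116175360, minus strand) encodes the ligand-binding type II receptor. Its highest levels were in lymphatic endothelium, fibroblasts and endothelial cells. Fibroblasts had 417 CPM (407 to 427) in WT_LW and 274 CPM (268 to 279) in TLR9agonist_LW (log2 ratio −0.61, −0.65 to −0.56, relative −0.33), and endothelial cells 375 CPM (358 to 393) in WT_LW and 189.8 CPM (177 to 203) in TLR9agonist_LW (log2 ratio −0.98, −1.10 to −0.86, relative −0.62). Both were lower in TLR9agonist_LW on CPM and relative to the median gene. Lymphatic endothelium had 459 and 543 CPM (log2 ratio 0.24, 0.02 to 0.47), and pericytes and smooth muscle 87.7 and 62.6 CPM (relative −0.13). After thinning, 42.7% and 30.3% (unthinned 91.3% and 83.2%) of fibroblasts and 33.6% and 18.3% (unthinned 69.5% and 65.9%) of endothelial cells had a Tgfbr2 UMI.

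In leukocytes Tgfbr2 differed by cluster. T cells had 122 and 80.1 CPM (log2 ratio −0.61, −0.71 to −0.51, relative −0.35). The Il17a cluster had 129.8 and 43.0 CPM (log2 ratio −1.59, −1.84 to −1.34), the Tnfsf8 cluster 154 and 121 CPM (log2 ratio −0.35, −0.48 to −0.22) and the Foxp3 cluster 54.3 and 59.3 CPM (log2 ratio 0.13, −0.35 to 0.60). Macrophages and dendritic cells had 49.1 and 58.8 CPM (log2 ratio 0.26, 0.13 to 0.40), with 103 and 160.5 CPM (log2 ratio 0.64, 0.47 to 0.80) in the C1qa cluster and 33.1 and 22.9 CPM (log2 ratio −0.53, −0.85 to −0.21) in the cluster led by F10 and Mmp12. The differences between clusters were not tested.

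Tgfbi (chr13:56609523-56639562, plus strand) encodes a secreted matrix protein induced by TGF-β. Macrophages and dendritic cells held the largest share of it, and its level was lower in TLR9agonist_LW on CPM in each of the 11 classes, with 0 inside the interval in neutrophils and in CD8 T or NK cells. Macrophages and dendritic cells had 869.6 CPM (857 to 882) in WT_LW and 509 CPM (498 to 521) in TLR9agonist_LW (log2 ratio −0.77, −0.81 to −0.73, relative −0.51). The F10 and Mmp12 cluster had 1414 and 814 CPM (log2 ratio −0.80, −0.85 to −0.75), the C1qa cluster 794 and 385 CPM (log2 ratio −1.04, −1.13 to −0.96) and the Cd207 cluster 339 and 347 CPM (log2 ratio 0.03, −0.07 to 0.13). The interval lay below 0 in the F10 and C1qa clusters and held 0 in the Cd207 cluster.

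Fibroblasts had 254 CPM (246 to 262) in WT_LW and 115 CPM (111 to 119) in TLR9agonist_LW (log2 ratio −1.14, −1.21 to −1.08, relative −0.87), and 31.0% and 16.7% (unthinned 79.4% and 56.9%) of them had a Tgfbi UMI after thinning. Of the 10 fibroblast sub-clusters, 8 had a ratio with its interval below 0, 1 had it above 0 and 1 had 0 inside. For 1 of the 10 a bound of the interval was missing. Keratinocytes had 169 CPM (162 to 178) in WT_LW and 132 CPM (128 to 137) in TLR9agonist_LW, where the sign depends on the scale (−0.36 on CPM, 0.08 relative). The Tgfbi level was 27.9 and 19.0 CPM (relative −0.19) in pericytes and smooth muscle and 94.5 and 51.2 CPM (relative −0.52) in endothelial cells. Mast cells had 62.5 and 17.9 CPM, from 41 and 17 UMIs (relative −1.98), and lymphatic endothelium 159 and 52.1 CPM (relative −1.61). The 10 macrophage and dendritic cell markers summed to 1647 and 216 CPM in lymphatic endothelium and 541 and 434 CPM in mast cells. Their part in these values was not tested.

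Acta2 (chr19:34241090-34255590, minus strand) encodes smooth muscle α-actin, the defining protein of smooth muscle and of myofibroblasts. Pericytes and smooth muscle had 3008 CPM (2962 to 3056) in WT_LW and 1850.4 CPM (1809 to 1893) in TLR9agonist_LW (log2 ratio −0.70, −0.74 to −0.66, relative −0.34). The 7 markers of this class, which do not include Acta2, were also lower, with sums of 14705 and 9940 CPM. Whether the 2 differences are related was not tested. The Acta2 level was lower in TLR9agonist_LW in 5 of 10 sub-clusters by their intervals and higher in 2, and 2 had no full interval. Sub-clusters 6 and 7 carried markers of other cells, and sub-clusters 8, 9 and 10 held 1 TLR9agonist_LW cell each. The sub-cluster led by Cxcl5 and Csf2, cytokine genes, had 4116 and 834 CPM (log2 ratio −2.30, −2.42 to −2.19). That led by Gadd45g and Rrad had 4408 and 2658 CPM (log2 ratio −0.73, −0.80 to −0.66), and that led by Ifit1 4174 and 5277 CPM (log2 ratio 0.34, 0.26 to 0.42).

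Fibroblasts had 113 CPM (108 to 119) in WT_LW and 68.8 CPM (66.0 to 71.7) in TLR9agonist_LW (log2 ratio −0.72, −0.81 to −0.63, relative −0.45). Few cells carried it, since the tenth of fibroblasts with the most Acta2 held 78.8% and 88.6% of its UMIs, and after thinning 9.65% and 4.64% (unthinned 36.2% and 21.0%) had a UMI. The fibroblast cluster led by Crabp1 and Igfbp2 had 161 and 33.8 CPM (log2 ratio −2.25, −2.40 to −2.10), and that led by Clec3b and Igfbp6 75.3 and 107 CPM (log2 ratio 0.51, 0.38 to 0.64). The large difference was thus in the Crabp1 cluster, and the other had a higher level in TLR9agonist_LW. The difference between the clusters was not tested.

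Some fibroblasts also held UMIs of marker genes of mural cells, the pericytes and smooth muscle. Whether these UMIs came from mural cells was not tested. Fibroblasts with UMIs of at least 2 of 7 mural markers numbered 111 and 105. Their Acta2 level was 129.7 and 436 CPM. They held 360 of the 1773 fibroblast Acta2 UMIs of WT_LW and 957 of the 2245 of TLR9agonist_LW. The remaining fibroblasts had 109.8 and 42.3 CPM. Without the cells with mural markers, the ratio in the Clec3b cluster was −0.54 (−0.70 to −0.37) and that in the Crabp1 cluster −2.10 (−2.26 to −1.95). The sign in the Clec3b cluster therefore depends on those cells, and in the Crabp1 cluster it does not. Over all fibroblasts the relative ratio was −1.10 without those cells and −1.04 without the mixed sub-clusters, past 2-fold in both, and −0.25 with each cell gated by its own markers. Both exclusions were chosen after the values were seen. Leaving out the cells with mural markers removed a larger part of the Acta2 UMIs of TLR9agonist_LW than of WT_LW, which by itself lowers the ratio.

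In lymphatic endothelium and mast cells both Acta2 and mural RNA were lower in TLR9agonist_LW. Lymphatic endothelium had 255 and 5.95 CPM, from 172 and 4 UMIs (relative −5.42), and the 7 mural markers summed to 974 and 49.1 CPM there. Mast cells had 71.6 and 26.3 CPM (relative −1.62), with mural markers at 331 and 60.0 CPM. In neutrophils the mural markers were at 122 and 57.5 CPM and Acta2 at 53.2 and 55.7 CPM, from 10 and 31 UMIs. Endothelial cells had Acta2 at 73.7 and 98.2 CPM (log2 ratio 0.41, 0.21 to 0.62, relative 0.78), with mural markers at 141 and 261 CPM. The part of mural RNA in these values was not tested.

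Ctgf (chr10:24595442-24598683, plus strand), also called Ccn2, encodes a matricellular protein that TGF-β and YAP with TEAD induce. Its ratio had opposite signs in fibroblasts and endothelium. Fibroblasts had 159 CPM (153 to 165) in WT_LW and 229 CPM (223 to 234) in TLR9agonist_LW (log2 ratio 0.52, 0.46 to 0.59, relative 0.80), and endothelial cells 282 CPM (267 to 297) in WT_LW and 174 CPM (162 to 187) in TLR9agonist_LW (log2 ratio −0.70, −0.83 to −0.57, relative −0.34). Pericytes and smooth muscle had 114 and 70.5 CPM (log2 ratio −0.69, −0.90 to −0.49, relative −0.33). The difference between classes was not tested.

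Schwann cells, the glia of skin nerves, had 16.4 CPM (13.3 to 19.9) in WT_LW and 69.0 CPM (60.4 to 78.5) in TLR9agonist_LW (log2 ratio 2.07, 1.73 to 2.43, relative 2.23), and after thinning 2.48% and 6.004% (unthinned 7.82% and 18.7%) of them had a UMI. Lymphatic endothelium had 43.0 and 173 CPM, from 29 and 116 UMIs (relative 2.01). The 5 markers of that class summed to 14610 and 28967 CPM in it, and the part of this difference in its Ctgf values was not tested. A list of 8 immediate early and heat shock genes, which respond quickly to stress and handling, summed to 8073 and 13478 CPM in fibroblasts, 9085 and 18924 CPM in Schwann cells, 8028 and 18533 CPM in lymphatic endothelium, 6304 and 14629 CPM in endothelial cells and 12691 and 18932 CPM in pericytes and smooth muscle. It was higher in TLR9agonist_LW in these 5 classes, and Ctgf was higher in 3 of them. Keratinocytes had 4745 and 4709 CPM of it, macrophages and dendritic cells 8845 and 9074 CPM and T cells 6719 and 11562 CPM. In the same order, the Ctgf log2 ratio was −0.79 (−1.22 to −0.35), 0.67 (0.20 to 1.14) and 0.55 (0.17 to 0.93). The sum was lower in TLR9agonist_LW in neutrophils (9690 and 6130 CPM) and mast cells (13620.5 and 10574 CPM). Its part in the Ctgf values was not tested.

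Postn (chr3:54361109-54391037, plus strand) encodes periostin, a matrix protein of wound fibroblasts. Fibroblasts had 6909 CPM (6867 to 6949.9) in WT_LW and 6191 CPM (6164 to 6218) in TLR9agonist_LW, a ratio of −0.16 on CPM and 0.11 relative to the median gene, so its sign depends on the scale. Nearly all carried it, 97.8% and 95.1% (unthinned 99.8% and 99.7%) after thinning. Schwann cells had 2121 CPM (2085 to 2158) in WT_LW and 1470.0 CPM (1429 to 1512) in TLR9agonist_LW (log2 ratio −0.53, −0.58 to −0.48, relative −0.37), and 87.1% and 79.7% (unthinned 97.5% and 95.5%) had a UMI after thinning.

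Postn UMIs were found in every class, also in those not known to express it. After thinning, 28.7% and 36.2% (unthinned 63.2% and 72.0%) of T cells had a Postn UMI. For each UMI of the 7 fibroblast markers, fibroblasts held 0.477 and 0.468 Postn UMIs, T cells 0.655 and 0.516, macrophages and dendritic cells 0.658 and 0.531, and endothelial cells 0.622 and 0.475. Keratinocytes held 0.789 and 0.946, higher in TLR9agonist_LW where these 4 classes were lower, and pericytes and smooth muscle 0.377 and 0.278. Schwann cells held 4.60 and 2.37, well above these ratios. The endothelial Postn level, 153 and 275 CPM (relative 1.21), stood beside fibroblast markers at 245 and 579 CPM in that class, and its part from free fibroblast RNA was not tested. Pericytes and smooth muscle had 880.2 and 516 CPM (log2 ratio −0.77, −0.85 to −0.70, relative −0.41), with fibroblast markers at 2335 and 1853 CPM.

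**Figure D2:**
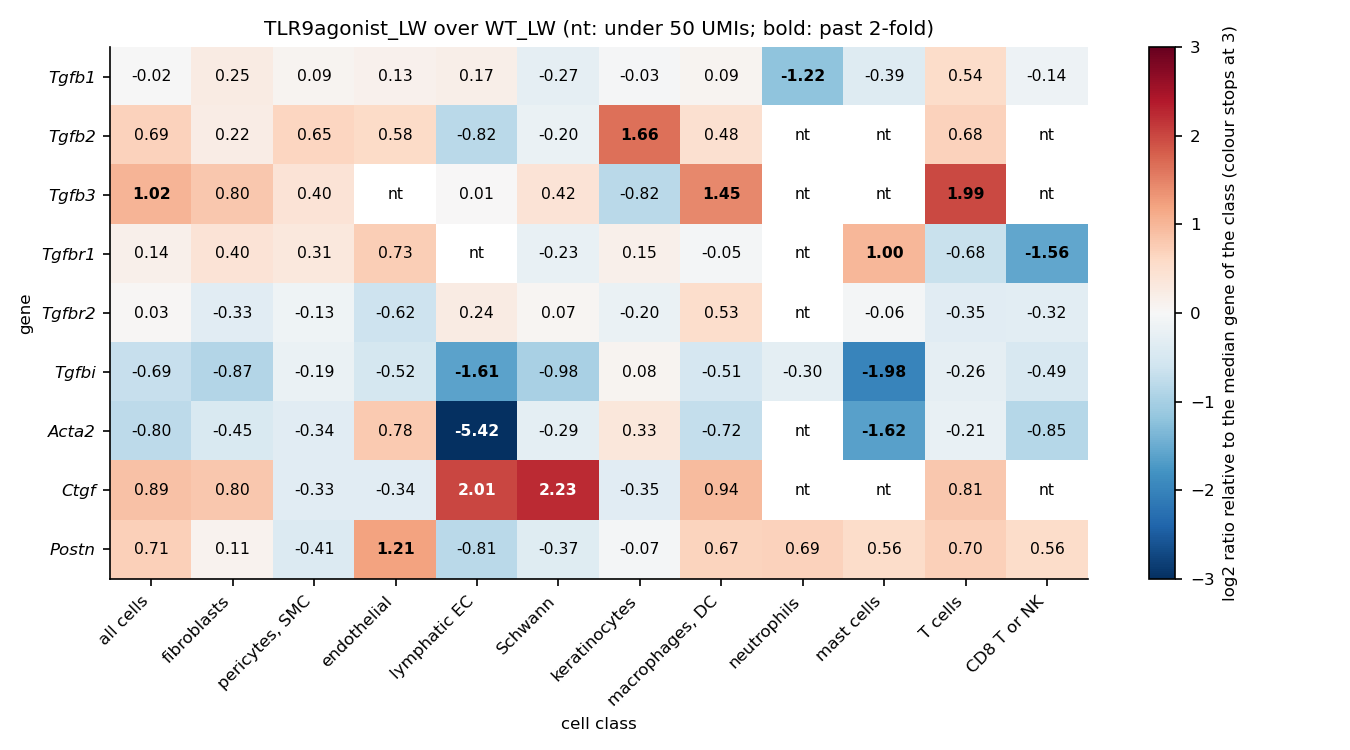
Log2 ratio of TLR9agonist_LW over WT_LW relative to the median gene of each class, for 9 genes (rows) over all cells and in 11 classes (columns); red is higher in TLR9agonist_LW, bold is past 2-fold and nt marks fewer than 50 UMIs. Fibroblasts and pericytes hold no bold value, and the darkest one is Acta2 in lymphatic endothelium, −5.42.

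The class that held most UMIs of a gene differed between libraries for Tgfb1, Tgfbr1 and no other member. Macrophages and dendritic cells held 38.4% and 23.6% of Tgfb1 UMIs and T cells 30.9% and 43.2%. For Tgfbr1, macrophages and dendritic cells held 34.9% and 17.5% and fibroblasts 17.5% and 36.2%. Fibroblasts held 51.2% and 63.6% of Tgfb2, 48.2% and 71.5% of Tgfb3, 47.0% and 62.9% of Tgfbr2, 49.1% and 79.7% of Ctgf and 77.8% and 88.9% of Postn. Pericytes and smooth muscle held 82.5% and 67.7% of Acta2, and macrophages and dendritic cells 69.4% and 44.998% of Tgfbi. Fibroblasts held 18.5% and 29.5% of the UMIs of all genes, and their share was higher in TLR9agonist_LW for each of the 9 members too.

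**Figure D3:**
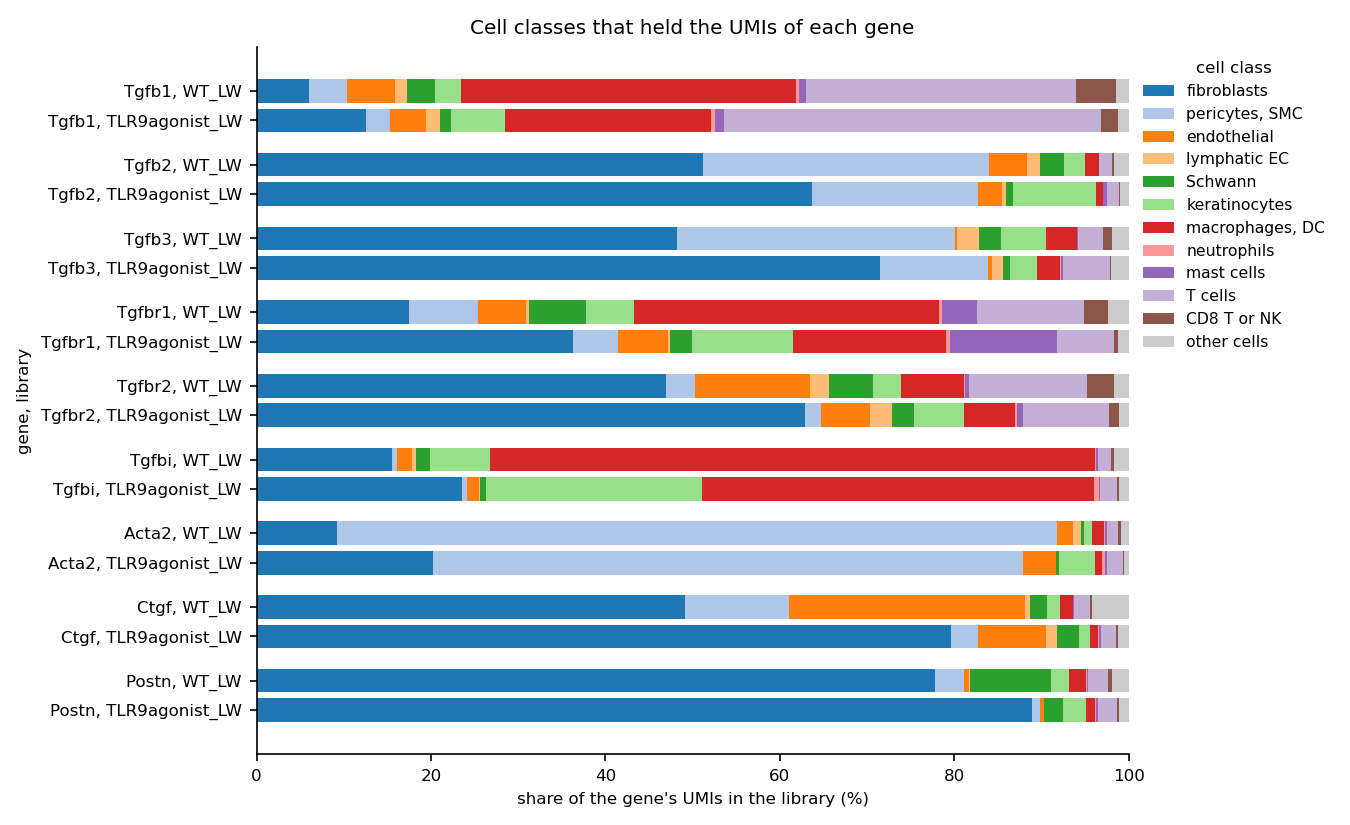
Share of the UMIs of each gene (horizontal axis, percent) held by each cell class in each library, 1 bar per gene and library. The fibroblast segment is longer in TLR9agonist_LW for all 9 genes, as it is for the UMIs of all genes (18.5% and 29.5%), and for Postn it covers 77.8% and 88.9%.

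Over all cells, the level of a gene can differ through the makeup of the library or through the level within classes. With WT_LW levels held and TLR9agonist_LW class shares put in, the Postn ratio was 0.48, and with shares held and levels exchanged it was −0.16, against 0.32 as measured. These were −0.51, −0.68 and −1.18 for Acta2, and −0.29, −0.79 and −1.08 for Tgfbi. For Tgfb1 they were −0.39, −0.02 and −0.40. For Tgfbr2 the parts had opposite signs, 0.20 and −0.49. All of these are on CPM, where the median gene was at −0.39, and which part is the larger can depend on that scale. Relative to the median gene the ratios over all cells were 0.71 for Postn, −0.80 for Acta2, −0.69 for Tgfbi, 0.03 for Tgfbr2 and −0.02 for Tgfb1, whose interval held 0 (−0.06 to 0.03).

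Fibroblasts were split into 10 sub-clusters, of which 7, 9 and 10 carried markers of other cells or few UMIs. Sub-cluster 10, led by Myh11 and Acta2, held 2 and 21 cells, and 813 of the fibroblast Acta2 UMIs of TLR9agonist_LW were in it. Ctgf had a ratio with its interval above 0 in 7 of 10 and below 0 in 0, and Tgfbr2 below 0 in 8. Acta2 was lower in 7 and higher in 2, sub-clusters 6 and 10. A bound of the interval was missing in 2 of the 10 for Acta2 and in 1 for Ctgf. Sub-cluster 9 held 2 and 24 cells. Sub-cluster 1, led by Crabp1 and Mef2c, had Acta2 at 218 and 20.3 CPM (log2 ratio −3.43, −3.74 to −3.12). Sub-cluster 6, led by Ebf2 and holding Pi16, had 28.8 and 51.9 CPM (log2 ratio 0.85, 0.33 to 1.39).

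Tgfb2 had no common direction in fibroblasts, with 2 sub-clusters higher, 1 lower and 7 with 0 inside the interval. Sub-cluster 5, led by Thbs4 and Barx2, had Tgfb2 at 118 and 172 CPM (log2 ratio 0.54, 0.37 to 0.71), and sub-cluster 6 had 31.3 and 62.6 CPM (log2 ratio 1.001, 0.51 to 1.51). Sub-cluster 1 had 149 and 53.9 CPM (log2 ratio −1.47, −1.71 to −1.23). Sub-cluster 6 also had Tgfbi at 430.4 and 78.9 CPM (log2 ratio −2.45, −2.72 to −2.18), and apart from the mixed sub-cluster 10 it alone had a higher Postn level in TLR9agonist_LW, 3417 and 4971 CPM (log2 ratio 0.54, 0.49 to 0.59).

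**Figure D4:**
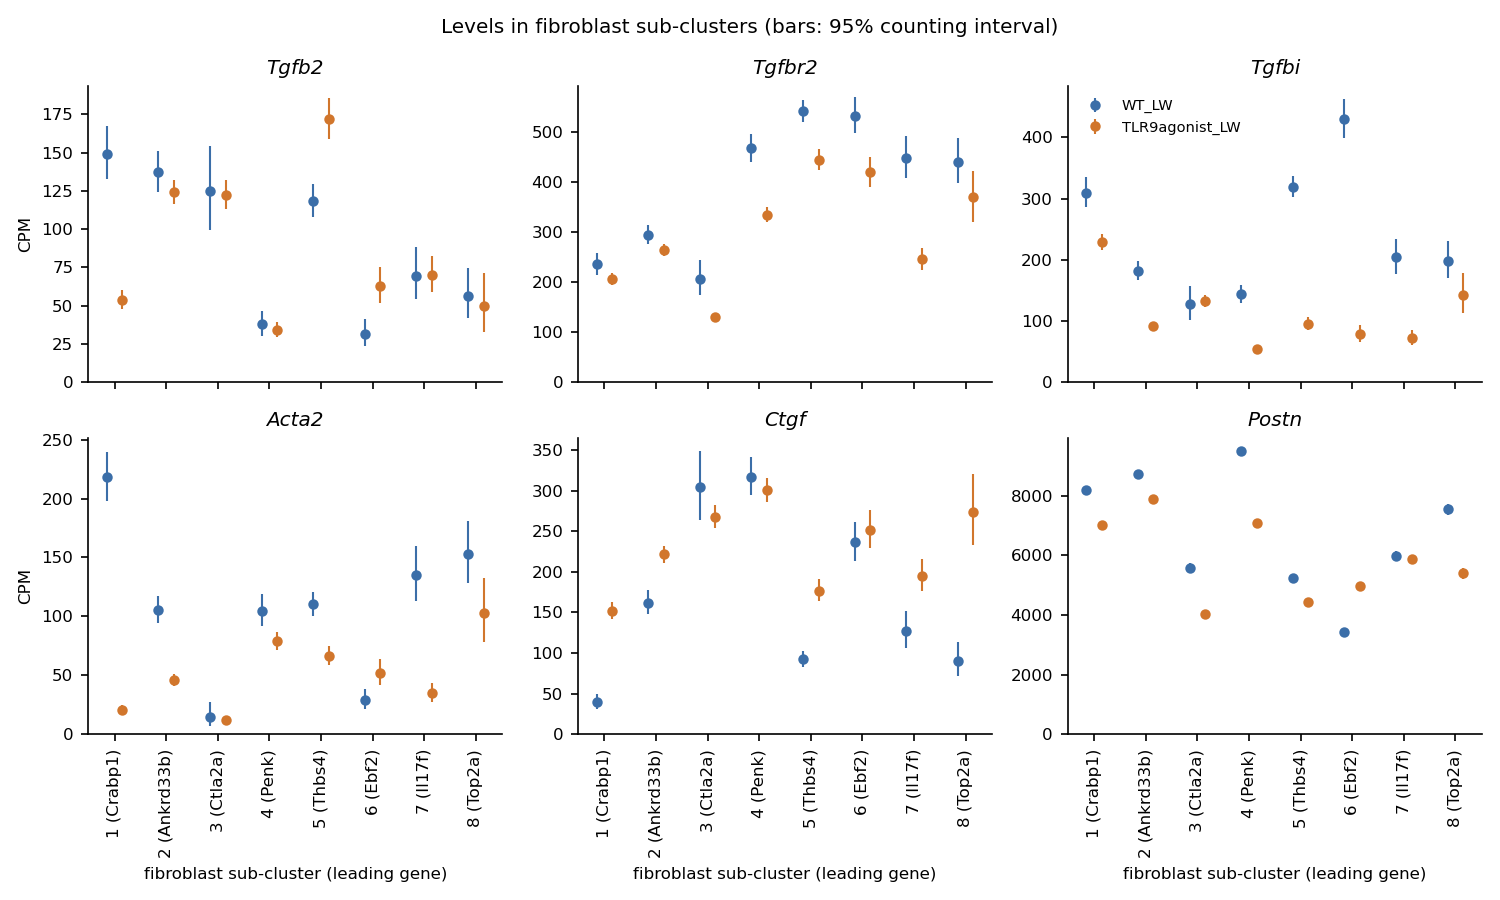
Levels in CPM of 6 of the genes in the 8 fibroblast sub-clusters with at least 10 cells in each library, named by their leading gene, with WT_LW in blue, TLR9agonist_LW in orange and bars for 95% counting intervals. Among those drawn, Ebf2-led sub-cluster 6 is the one with higher Acta2 and Postn in TLR9agonist_LW, while its Tgfbi is lower.

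The rest of the pathway was read from 6 lists in fibroblasts, where 787 of 12513 genes were past 2-fold higher in TLR9agonist_LW and 466 lower, or 525 and 861 on CPM as such. The relative log2 ratio stands in parentheses, and its median over all genes tested was 0.00. Of 14 genes of latency and activation, 1 was higher and 2 lower (median −0.15). Ltbp2, a matrix protein of the LTBP family, had 28.3 and 55.8 CPM (1.25), and Thbs1, which can activate latent TGF-β, 523 and 612 CPM (0.50). Ltbp4 had 75.9 and 30.8 CPM (−1.03) and Fbn1, the fibrillin of the microfibrils that hold latent TGF-β, 1342 and 576 CPM (−0.95). None of the 4 co-receptor genes was past 2-fold. Among them were Tgfbr3, betaglycan, at 156 and 207 CPM (0.68), Eng at 27.2 and 32.3 CPM (0.52), Nrp1 at 157 and 69.6 CPM (−0.90) and Bambi, a decoy receptor, at 13.6 and 9.63 CPM (−0.23).

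Of 13 genes of SMAD signalling and feedback, 2 were higher and 0 lower (median −0.13). The 2 higher ones were Smad7, the inhibitory SMAD, at 61.7 and 151 CPM (1.57) and the corepressor Tgif1 at 28.8 and 59.3 CPM (1.32). The lowest were Smurf1, a ubiquitin ligase, at 35.0 and 18.3 CPM (−0.66) and Zfyve9 at 26.3 and 15.2 CPM (−0.52). Of 12 early targets, 3 were higher and 1 lower (median 0.55). They included Junb, also an immediate early gene, at 575 and 1335 CPM (1.49), and the cell cycle inhibitor Cdkn2b at 19.2 and 43.6 CPM (1.45). Hmga2, a chromatin protein of immature mesenchyme, had 17.6 and 1.96 CPM (−2.89) and Tsc22d1 225 and 144 CPM (−0.37). The immediate early and heat shock sum in fibroblasts, which includes Junb, was higher in TLR9agonist_LW as given above for Ctgf (8073 and 13478 CPM), and its part in the early targets was not tested.

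No gene of the 13 actin and contractile genes was past 2-fold in fibroblasts (median −0.29). Tagln, an actin-binding protein of smooth muscle, had 292 and 392 CPM (0.69) and Cnn2 123 and 136 CPM (0.41), while the focal adhesion protein gene Vcl had 118 and 57.2 CPM (−0.78) and Actg2 18.7 and 9.51 CPM (−0.70). The part of the fibroblasts with mural markers in these values was not tested. Of 23 matrix genes 3 were higher and 3 lower (median 0.17). Eln, elastin, had 468 and 848 CPM (1.13) and Timp3, an inhibitor of metalloproteinases, 296 and 505 CPM (1.04). Fap, a protease of activated fibroblasts, had 53.6 and 14.7 CPM (−1.59), and the basement membrane collagen gene Col4a1 157 and 61.3 CPM (−1.09). The other list genes past 2-fold in fibroblasts, named after their values were seen, were Itgb8 at 4.92 and 1.47 CPM (−1.47), Ier3 at 426 and 707 CPM (1.004), Bgn at 2148 and 3638 CPM (1.03) and Loxl2 at 791 and 322 CPM (−1.02).

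**Figure D5:**
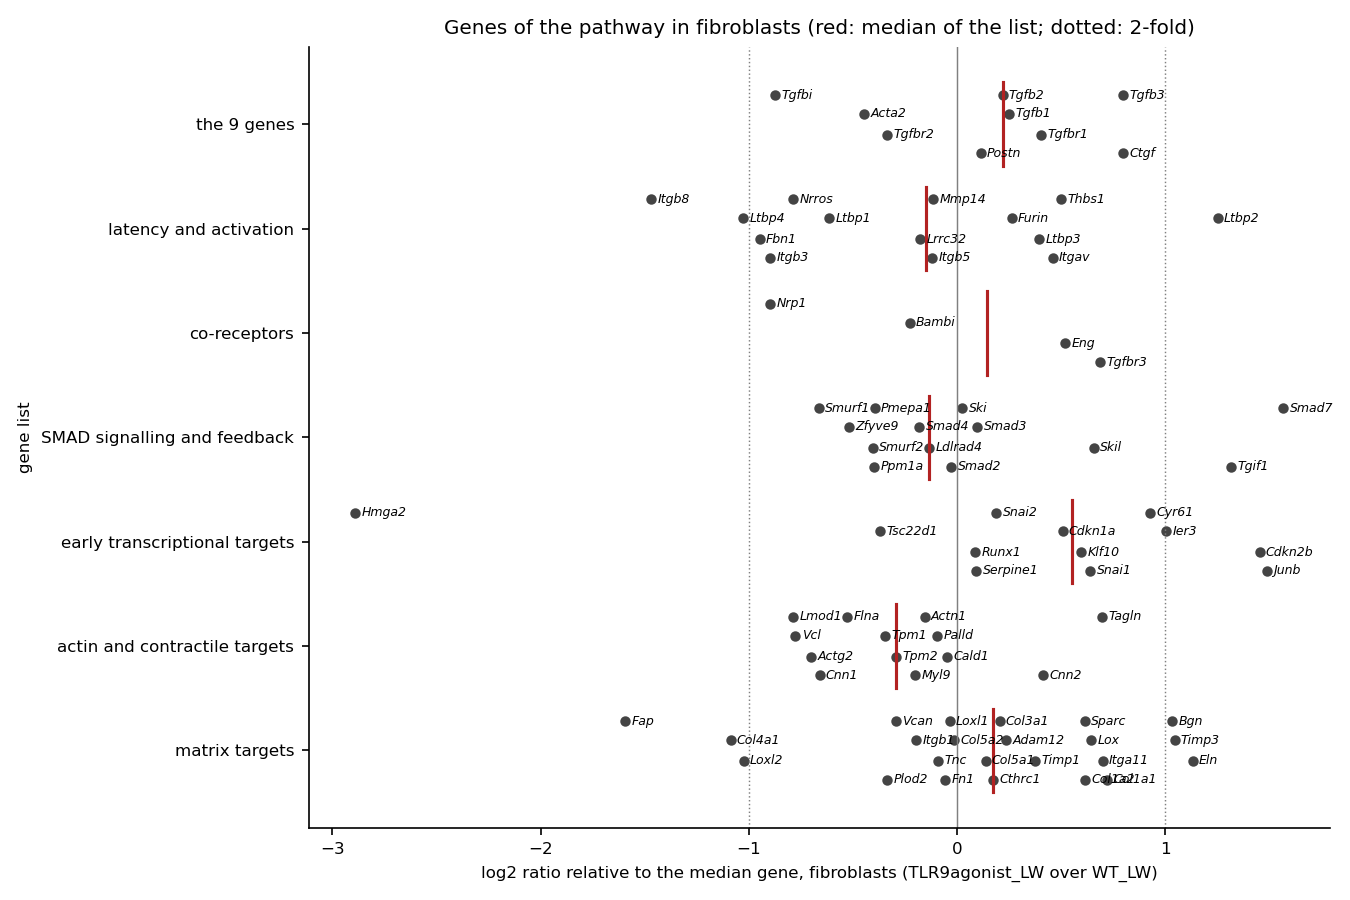
Relative log2 ratio of TLR9agonist_LW over WT_LW in fibroblasts (horizontal axis) for the 9 genes and 6 pathway lists (rows), with a point for each gene with at least 50 UMIs, red lines at list medians and dotted lines at 2-fold. The 9 genes lie between −0.87 and 0.80, and Hmga2 is the lowest gene of the lists.

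Over all cells the same lists were read once more, and the part of the class shares in them was not tested. Of all genes, 1105 were past 2-fold higher and 699 lower, or 584 and 1815 on CPM as such. Matrix genes were higher in 7 of 23 and lower in 0 (median 0.69), with Eln at 119.5 and 268 CPM (1.55) and Bgn, biglycan, at 576 and 1241 CPM (1.49), and at the other end Col4a1 at 639 and 265 CPM (−0.88) and Fap at 16.1 and 7.21 CPM (−0.77). Of 15 latency and activation genes 3 were higher and 1 lower, from the epithelial integrin gene Itgb6 at 1.65 and 6.09 CPM (2.28) and Ltbp2 at 5.93 and 17.8 CPM (1.97) to Ltbp4 at 84.1 and 37.9 CPM (−0.76) and Itgb8 at 56.6 and 20.7 CPM (−1.06). Early targets had 3 higher and 1 lower of 12, with Cdkn2b at 10.3 and 23.1 CPM (1.56), Cyr61 at 211 and 342 CPM (1.08), Klf10 at 47.3 and 33.8 CPM (−0.10) and Hmga2 at 4.15 and 0.942 CPM (−1.75). The others past 2-fold in these 2 lists, named after their values were seen, were Thbs1 at 307 and 518 CPM (1.14) and Ier3 at 441 and 689 CPM (1.03). Of 13 actin and contractile genes 0 were higher and 1 lower, with Tagln at 202 and 232 CPM (0.59), Palld at 55.1 and 59.1 CPM (0.49), Actg2 at 18.4 and 8.90 CPM (−0.66) and Lmod1 at 10.7 and 3.25 CPM (−1.33). None of the 13 SMAD or 4 co-receptor genes was past 2-fold. The SMAD list ran from Smurf2 at 39.9 and 25.9 CPM (−0.23) and Zfyve9 at 21.5 and 14.3 CPM (−0.20) to Smad7 at 152 and 152 CPM (0.39) and Smad3 at 17.9 and 19.1 CPM (0.48), and the co-receptors from Nrp1 at 129 and 57.8 CPM (−0.77) and Eng at 51.2 and 36.1 CPM (−0.12) to Bambi at 15.9 and 13.9 CPM (0.20) and Tgfbr3 at 67.4 and 78.7 CPM (0.61).

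The genes whose levels followed each member most closely were ranked by Pearson's r of log2(CPM + 1) over the 22 class values of both libraries, among 11977 genes. The classes of a library share its free RNA, so r is a description. Tgfb1 was nearest to Ptpn18 (r = 0.92), Gpsm3 (0.88) and Pak2 (0.88), Tgfb2 to Tfpi2 (r = 0.90), Fgd1 (0.90) and Laptm4a (0.89) and Tgfb3 to C2 (r = 0.91), Ank2 (0.87) and Shc2 (0.86). Tgfbr1 was nearest to Rffl (r = 0.87), Mitf (0.85) and Osbpl8 (0.84), of which Mitf encodes a transcription factor of mast cells and melanocytes. Tgfbr2 was nearest to Tspan18 (r = 0.87), Chpf2 (0.87) and Mest (0.86). Tgfbi was nearest to Ctsb (r = 0.86), Ctsh (0.83) and Mfsd1 (0.81), of which Ctsb and Ctsh encode lysosomal cathepsins. Acta2 was nearest to Rgs5 (r = 0.93), Gucy1a3 (0.92) and Mir143hg (0.92), of which Rgs5 is a pericyte marker. Ctgf was nearest to Ppic (r = 0.92), Pxdn (0.91) and Triqk (0.91), and Postn to Col1a2 (r = 0.97), Col3a1 (0.97) and Thbs2 (0.97), where the collagen genes are fibroblast genes. Among the members themselves the highest r was that of Tgfb2 with Tgfb3, 0.82.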

How the data were processed

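Wound skin of 2 groups was profiled by 10x 3′ single-cell RNA sequencing, 1 library per group. The authors deposited UMI counts per gene and barcode. The file header names Cell Ranger 4.0.0, and the submitters' processing notes name fastp, Cell Ranger, Seurat and mm9. Gene positions were taken from the GENCODE annotation of GRCm38 by Ensembl identifier.

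Barcodes under 500 UMIs, under 300 genes or over 15% mitochondrial UMIs were dropped (1357 and 545 of them). Predicted doublets, the highest Scrublet scores at a rate of 0.8% per 1000 barcodes, were removed (1172 and 1453), in scanpy 1.11.5 under Python 3.11.15. From 2000 variable genes, without the members and the pathway lists, 30 principal components were corrected for library by the Harmony algorithm, written anew for this work, and clustered with leidenalg 0.10.2 at resolution 1. Clusters were named from marker lists (3 or more markers found in 10% or more of the cells and higher there by a log2 fold of 0.5 or more), and a cluster with T and NK markers was called CD8 T or NK cells. Gating each cell by itself, a closer match to gated cell types, was an alternative. It gave the same class for 2743 of 3157 fibroblasts and 1811 of 1853 keratinocytes. The same held for 4837 of 6644 T cells, 1765 of 3391 macrophages and dendritic cells and 128 of 286 neutrophils.

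UMIs were summed per class and library and expressed as CPM, the count for each 1000000 UMIs, with exact Poisson 95% intervals computed with scipy 1.17.1. Ratios have exact intervals given the total count, and shares of cells exact Clopper-Pearson intervals. With 1 library per group there was no test. The median gene of a class is taken over genes with at least 200 UMIs. The calculation was tested on simulated counts. All 9 members are named, with their values in every class plotted and a choice of classes written out. Of each pathway list, the 2 genes with the highest and 2 with the lowest ratio among those with at least 200 UMIs are named, in fibroblasts and over all cells, and for each member the 3 genes most like it among genes with at least 500 UMIs. The members and lists were chosen with earlier results of these data known.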

Additional observations from a re-analysis of the deposited data

Results flagged for a closer look

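Tgfbr1 was past 2-fold in opposite directions in 2 cell classes. Its relative log2 ratio was 1.002 in mast cells, from 119 and 391 UMIs, and −1.56 in CD8 T or NK cells, from 80 and 13 UMIs. With 1 library per group, the difference between the classes was not tested. The mast cell value fell short of 2-fold in 4 of 8 alternatives.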

How the results depend on the processing

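No paired analysis was possible because each group has 1 library. For the same reason no replicate could be left out. Class borders also moved with small numerical changes in the clustering. Depth limits the small classes most, where the members had few UMIs. The count of members past 2-fold was 0 in pericytes and smooth muscle and 1 in T cells under every alternative run. Over all cells it was 1, Tgfb3, which was higher, with 0 when predicted doublets were kept and 2 on CPM as such, Tgfbi and Acta2, which were lower. In fibroblasts it was 0, and 1 under the stricter cell filter, with doublets kept, with all variable genes and on CPM as such, and also 1 in both alternatives chosen after seeing the data, without mixed sub-clusters and without fibroblasts with mural markers. That gene was Acta2, and on CPM as such Tgfbi. In keratinocytes it was 1, with 3 under the stricter filter, 2 with doublets kept, 3 with each cell gated by itself, 4 with equal weight per cell and 2 on CPM as such. In endothelial cells it was 1, with 2 with doublets kept and 0 with equal weight or on CPM as such. In macrophages and dendritic cells it was 1, with 2 under the stricter filter or with each cell gated. In Schwann cells it was 1, with 2 with doublets kept, at Leiden resolution 2, with equal weight and on CPM as such. The cause of these differences was not tested. No ratio reported as past 2-fold changed sign. Ctgf in keratinocytes, not past 2-fold as reported (−0.35), was −1.59 under the stricter filter and 1.12 with doublets kept. CPM as such also moved the split of all genes over all cells from 1105 higher and 699 lower to 584 and 1815, and in keratinocytes from 556 and 847 to 245 and 2332. The ratio of Postn in endothelial cells ranged from 0.56 to 1.38 over its alternatives, that of Tgfb2 in keratinocytes from 1.22 to 1.92 and that of Tgfb3 in T cells from 1.17 to 2.04. Of the ratios of members over all alternatives, 167 moved beyond their counting interval and 600 did not. CD8 T or NK cells have no value with each cell gated by itself.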
